A study of Mus musculus with 18 samples.

Results

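Replication-dependent histone genes encode the linker histone H1 and the core histones H2A, H2B, H3 and H4. They were taken here as every row of the deposited expression table whose symbol has the form Hist, 1 digit, h (such as Hist1h2ah), which gave 65 of 25791 genes: 6 for H1, 18 for H2A, 17 for H2B, 12 for H3 and 12 for H4. By their symbols 51 belong to Hist1 on chromosome 13, 10 to Hist2 on chromosome 3, 3 to Hist3 on chromosome 11 and 1, Hist4h4, to chromosome 6. By its deposited position Hist1h2al lies on chromosome 13 well away from the other Hist1 genes. The values are FPKM, the authors' estimate of fragments scaled to transcript length and library size, and 63 members reached 1 FPKM in at least 3 of 18 libraries and were tested. The 2 that did not were Hist1h2aa and Hist2h4.

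The libraries were made from uterus cross sections of mice on a mixed 129Sv X C57BL/6 background, all 12 weeks old. Wild-type mice (WT) were compared with mice lacking Tsc2, a brake on the growth kinase complex mTORC1, in the uterus only (KO); the labels do not name the Cre driver or the cell types that lost the gene. Each genotype was studied with ovaries in place (intact), with the ovaries removed at 4 weeks and no hormone (ovx), and with the ovaries removed at 4 weeks and a 0.5 mg 17β-estradiol pellet of 90-day release carried for 8 weeks (E2). Each of these 6 groups held 3 libraries. Nothing in the labels ties a library to its own animal. The p-values below therefore rest on the spread among the deposited samples, part of which may be technical.

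Cells make these histones in bulk when they copy their DNA, because each new genome needs a full set of nucleosomes, and the mRNAs are made and destroyed in step with S phase. Unlike nearly all other mRNAs they normally end in a conserved stem-loop, bound by the protein SLBP, in place of a poly(A) tail; the same genes can also yield longer polyadenylated transcripts in cells that have stopped dividing. In the uterus estradiol drives epithelial cells into DNA replication. The libraries here were made with a kit that selects polyadenylated RNA, so a level below is the level of whatever histone RNA passed that selection, and how far the selection sets it was not tested. In bulk tissue, fewer cells making a transcript and less of it per cell cannot be told apart.

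The stem-loop is shown because it is the end that lacks a poly(A) tail, and because Hist3h2ba, which fell under estradiol, carries the same stretch as members that rose. A script searched the annotated mouse transcripts of GENCODE M21 (build GRCm38), where 64 members have an entry, for the stem-loop pattern after the stop codon. It was found in 44 members, between 21 and 58 bases after the stop codon (median 31). In the sites below, 26 bases long, capitals mark the 16 bases of the stem-loop.
Hist1h1c: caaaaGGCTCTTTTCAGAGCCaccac
Hist2h2ac: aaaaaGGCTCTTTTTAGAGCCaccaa
Hist1h2bk: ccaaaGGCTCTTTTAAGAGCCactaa
Hist1h3d: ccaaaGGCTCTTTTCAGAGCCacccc
Hist1h4a: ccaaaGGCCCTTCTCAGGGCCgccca
Hist3h2ba: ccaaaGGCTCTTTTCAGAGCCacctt
The 16 capital bases of Hist1h1c, Hist1h3d and Hist3h2ba were identical. That form was the most frequent in H1 (3 members), H2A (9), H2B (8) and H3 (5), whereas the 11 H4 members with a stem-loop carried other stems, most often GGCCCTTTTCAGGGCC (6 members).

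The annotation also gives ends of the other kind. In 12 members an annotated transcript runs at least 100 bases past the stem-loop and has a poly(A) signal (AATAAA or ATTAAA) in its last 50 bases, Hist1h1c, Hist3h2a and Hist3h2ba among them. Another 11 run past the stem-loop without such a signal, 20 end by the stem-loop, and 18 hold neither a stem-loop nor a signal near the end. Hist1h2bp and Hist2h2be each have a transcript with a signal and no stem-loop, and another transcript of Hist1h2bp ends shortly after a stem-loop. Of the last 2, Hist1h2al is annotated as a processed pseudogene and Hist3h2bb was not matched.

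Promoters are shown for 4 members that did different things under estradiol, the risers Hist1h2bg, Hist1h2bk and Hist1h4a and Hist3h2ba, which fell. The sequences are from RefSeq on build GRCm38.p6, from 150 bases before the start site to 10 after it, and capitals mark matches on either strand to the octamer ATTTGCAT (bound by OCT-1, encoded by Pou2f1, in H2B promoters), to CCAAT and to TATAAA. Hist1h2bg lies at chr13:23571250-23571409 (plus strand), Hist1h2bk at chr13:22035671-22035830 (plus), Hist1h4a at chr13:23761240-23761399 (minus) and Hist3h2ba at chr11:58948761-58948920 (plus).
Hist1h2bg: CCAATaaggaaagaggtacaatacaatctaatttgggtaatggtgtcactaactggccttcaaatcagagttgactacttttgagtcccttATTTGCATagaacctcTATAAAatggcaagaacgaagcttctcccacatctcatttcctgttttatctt
Hist1h2bk: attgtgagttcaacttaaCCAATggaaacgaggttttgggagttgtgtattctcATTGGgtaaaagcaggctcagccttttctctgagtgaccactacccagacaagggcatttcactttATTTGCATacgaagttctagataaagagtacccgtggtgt
Hist1h4a: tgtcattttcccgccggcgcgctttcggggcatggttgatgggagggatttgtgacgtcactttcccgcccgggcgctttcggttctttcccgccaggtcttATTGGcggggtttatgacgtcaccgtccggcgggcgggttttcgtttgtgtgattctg
Hist3h2ba: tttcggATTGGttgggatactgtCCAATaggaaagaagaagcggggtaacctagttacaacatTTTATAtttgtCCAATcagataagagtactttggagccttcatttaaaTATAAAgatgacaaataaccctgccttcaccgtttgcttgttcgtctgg
RefSeq promoters were matched for 58 members and searched over 300 bases each. The octamer was found in 7 of 17 H2A and 6 of 14 H2B promoters and in no H1, H3 or H4 promoter, against 1.74% of all 32851 promoters. CCAAT was found in every H1, H2A, H2B and H3 promoter matched and in 3 of 11 of H4, against 37.4% of all, and TATAAA in 34 of the 58, against 13.6%. H2A and H2B genes often lie head to head, so some of these windows overlap. With estradiol in WT, 5 of 6 tested H2B genes with the octamer rose and 7 of 8 without it.

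The members of a family cannot be taken as independent measurements. Coding sequences shared a median identity of 94.0% in H2A, 96.6% in H2B, 97.6% in H3 and 93.9% in H4, and Hist1h2ah and Hist1h2ai share a run of 333 identical bases. The sources used here do not say how the authors divided reads between such copies, so values of single members are uncertain where copies are near-identical. Within a family the tested members moved closely together over the 12 ovariectomized libraries, with a median Pearson correlation of 0.991 in H1, 0.973 in H2A, 0.986 in H2B, 0.997 in H3 and 0.997 in H4, values that share libraries, scaling and possibly reads. In H2B the lowest correlation was -0.899, between genes that rose and genes that fell under estradiol. The table also gives several genes 1 merged position: Hist1h2af, Hist1h2bh, Hist1h3f, Hist1h3g and Hist1h4h share one, and Hist1h1e and Hist1h2be share another.

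As a check of the labels, Tsc2 stood at 3.24, 3.49 and 3.17 FPKM in WT ovx against 2.98, 3.33 and 2.39 in KO ovx, at 2.73, 2.38 and 2.66 in WT E2 and 2.42, 1.75 and 2.28 in KO E2, and at 2.51, 2.25 and 2.04 in WT intact and 1.88, 1.98 and 1.62 in KO intact. The KO mean was lower in each state, the libraries overlapped in all but the intact state, and the difference passed the test in none (limma, log2 change -0.15, -0.19 and -0.21, adjusted p = 0.571, 0.420 and 0.425). FPKM summed to between 216032 and 591668 per library, depth is unknown, and the 65 histone genes made up 0.354% to 0.899% of it. The lowest values fall into 4 sets of libraries that share steps, called batches here although the labels name none: batches 1 and 2 hold the intact libraries, batch 3 holds WT ovx replicates 1 and 3, all KO ovx, WT E2 replicate 5 and KO E2 replicate 3, and batch 4 holds WT ovx replicate 2 and the other E2 libraries. Uterine markers were present throughout, none of 10 epithelial, 8 stromal and 7 smooth muscle genes being at 0 in every library of a group. WT E2 replicate 2 stood apart in RNA without a poly(A) tail (Rn7sk 714 FPKM, against 5.17 to 45.7 in the other libraries). WT ovx replicate 3 and KO ovx replicate 4 stood apart in the histones themselves, as described next.

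**Figure D1:**
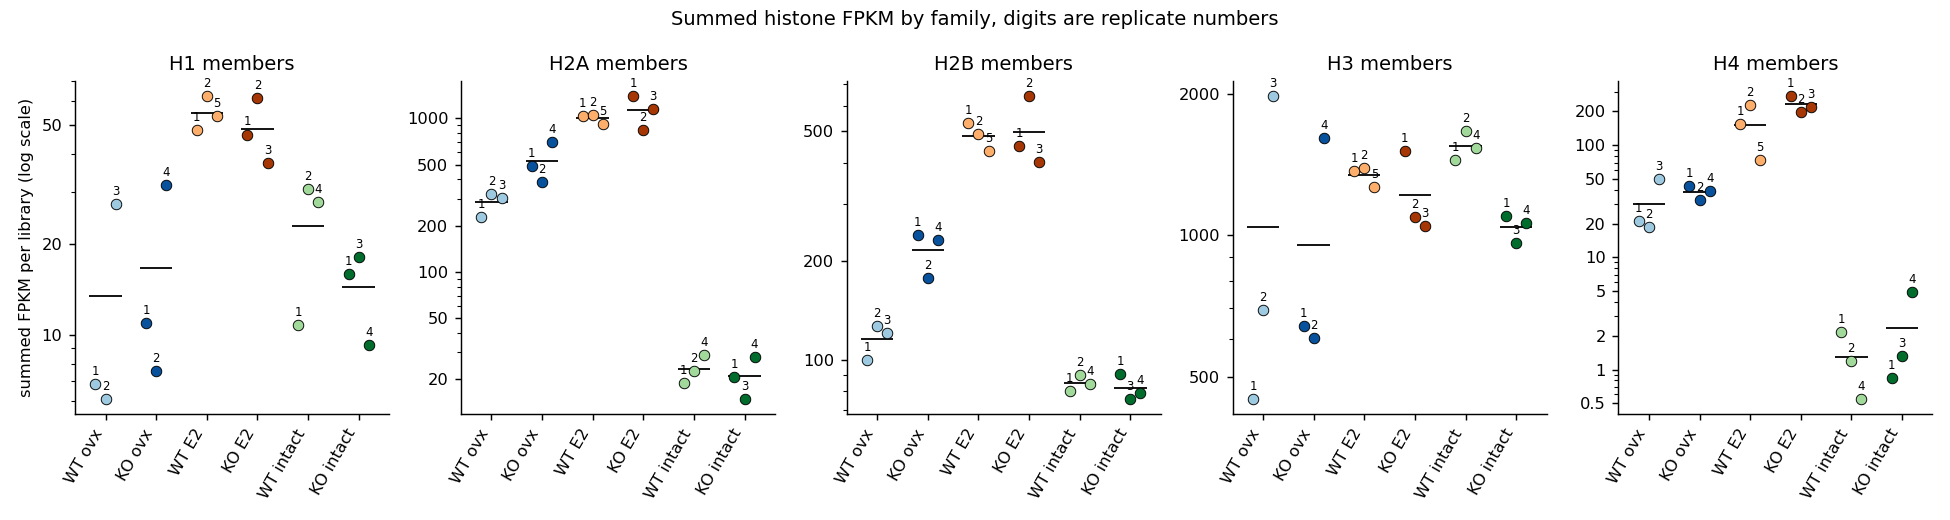
Summed FPKM of the members of each histone family in each library, on log axes; every point is a library labelled with its replicate number and horizontal lines are group means. H2A, H2B and H4 stand higher in every E2 library than in any ovx library, H2A and H4 are lowest in the intact libraries, and WT ovx replicate 3 and KO ovx replicate 4 are high in H1 and H3.

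Estradiol raised most H1, H2A, H2B and H4 genes in both genotypes. Of 63 tested members, 45 rose and 3 fell in WT (limma, adjusted p under 0.05 over 13898 genes), where 32.3% of all genes rose and 15.2% fell; 44 rose and 3 fell in KO, against 15.9% and 11.2%. The 44 that rose in KO also rose in WT, and Hist1h2al, named as the remaining member, passed the test in WT and not in KO. The median log2 change of the members was 1.79 in WT against 0.24 over all genes tested, and 1.07 against 0.07 in KO.

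The linker histones, which bind DNA between nucleosomes, rose as a group, 6 of 6 in each genotype. Hist1h1c, the most abundant, stood at 4.29, 3.46 and 13.5 FPKM in WT ovx and 25.8, 27.3 and 30.9 in WT E2, and at 6.10, 4.50 and 16.1 in KO ovx and 24.2, 36.7 and 21.4 in KO E2. Every E2 library lay above every ovx library of its genotype, and in each ovx group 1 library, WT replicate 3 or KO replicate 4, lay well above the other 2. The log2 change was 2.05 (SE 0.50, adjusted p = 0.00427, limma) in WT and 1.66 (SE 0.50, adjusted p = 0.0235) in KO. Hist1h1b rose from 1.17, 1.28 and 5.90 FPKM to 9.95, 15.5 and 9.91 in WT, and Hist1h1t, known as a testis form, from 0.182, 0.207 and 0.962 to 1.64, 2.56 and 1.56. Hist1h1t reached 1 FPKM only in the E2 libraries and in KO ovx replicate 4, so the filter favoured its rise. In KO the H1 calls were less secure: each of the 6 was lost in 4 of 6 fits that left out a KO library, and 1 of 6 remained with batch as a term.

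H2A genes rose in 16 of 17 tested members in WT and 15 in KO. Hist1h2ah stood at 29.8, 42.5 and 38.4 FPKM in WT ovx and 153, 150.0 and 131 in WT E2. In KO it went from 68.3, 55.2 and 99.5 FPKM to 187, 113 and 155. The groups did not overlap in either genotype, and the KO ovx libraries started above those of WT. The change was 1.95 on the log2 scale (SE 0.26, adjusted p = 1.11e-04, limma) in WT and 1.03 (SE 0.26, adjusted p = 0.00913) in KO. The Hist2 genes Hist2h2aa2 and Hist2h2ac, both on chromosome 3, rose in both genotypes. Hist2h2ac rose by 1.41 in WT and 1.48 in KO (SE 0.25 each), a difference of 0.07 (SE 0.36, adjusted p = 0.919, limma). Hist3h2a was the exception among well-measured H2A genes, at 4.51, 4.15 and 3.02 FPKM in WT ovx and 4.91, 4.30 and 4.53 in WT E2 (log2 change 0.20, adjusted p = 0.361, limma).

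H2B genes split. In each genotype 13 of 17 rose, 3 fell and Hist2h2bb, named because it is the remaining member, passed the test in neither. Hist1h2bc went from 7.66, 11.0 and 9.15 FPKM in WT ovx to 60.8, 53.1 and 49.2 in WT E2, the largest log2 rise of any member in WT (2.44, SE 0.27, adjusted p = 3.49e-05, limma). In KO it went from 24.5, 17.1 and 25.5 to 46.2, 77.7 and 44.8 FPKM (1.26, SE 0.27, adjusted p = 0.00317). No E2 library overlapped an ovx library in either genotype.

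The 3 that fell were Hist2h2be, Hist3h2ba and Hist3h2bb; Hist2h2be and Hist3h2bb are named because of these values. Hist2h2be, whose annotated transcript has a poly(A) signal and no stem-loop, went from 2.51, 1.63 and 1.42 FPKM in WT ovx to 0.476, 0.264 and 0.418 in WT E2, and from 2.22, 1.99 and 1.09 in KO ovx to 0.317, 0.475 and 0.555 in KO E2. Hist3h2ba went from 1.96, 1.66 and 1.38 to 0.608, 0.338 and 0.217 in WT, and from 1.85, 1.99 and 0.754 to 0.346, 0.186 and 0.743 in KO. All 3 were lower in every E2 library than in any ovx library of their genotype, at levels near the filter. Hist3h2ba and Hist3h2bb reached 1 FPKM in ovx libraries only, and Hist2h2be in no E2 library. They entered the test through the libraries where they were high, so the filter favoured a fall. The log2 changes were -1.03, -0.95 and -1.03 in WT (adjusted p = 0.00417, 0.00759 and 0.00327, limma) and -0.91, -0.81 and -0.92 in KO (adjusted p = 0.0148, 0.0297 and 0.0118). Hist3h2ba lost its call in KO in 4 of 6 fits without a KO library, with adjusted p up to 0.121.

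H4 genes rose in 10 of 11 tested members in each genotype, and in KO they had the largest median change of any family, 2.32 on the log2 scale, against 2.01 in WT. Hist1h4a stood at 2.44, 1.80 and 5.64 FPKM in WT ovx and 18.8, 26.2 and 7.96 in WT E2. In KO it stood at 5.01, 3.57 and 4.58 FPKM without and 31.8, 23.5 and 25.2 with estradiol. WT E2 replicate 5, in batch 3, was the lowest of the E2 libraries, and no E2 library overlapped an ovx one. The log2 change was 2.08 in WT (SE 0.35, adjusted p = 3.87e-04, limma) and 2.37 in KO (SE 0.35, adjusted p = 1.93e-04). Hist4h4 alone did not pass (0.24, adjusted p = 0.457, in WT and 0.72, adjusted p = 0.0513, in KO), with at most 1.49 FPKM in any library.

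H3 genes were the most abundant, and in neither genotype did any of 12 pass the test (limma, with 0 at an unadjusted p under 0.05). Hist1h3d, the highest of all members, stood at 76.3, 119 and 336 FPKM in WT ovx, 233, 230.0 and 215 in WT E2, 109, 102 and 272 in KO ovx and 257, 187 and 178 in KO E2. WT ovx replicate 3 and KO ovx replicate 4 lay above every E2 library, and the other 4 ovx libraries below them all. The median log2 change over 12 H3 members was 0.64 in WT and 0.47 in KO, and it turned to -0.37 and -0.21 under quantile normalization. Leaving out WT ovx replicate 3 and KO ovx replicate 4 removes the ovx libraries that lay above E2 in H3, so a rise in H3 follows from that choice. In the fit without those 2 libraries, an alternative chosen after their values were seen, 12 of 12 H3 members passed the test as higher in each genotype (median 1.25 and 0.92). The members rising came to 57 in WT and 57 in KO. Over all genes 4166 rose in that fit in WT and 2519 in KO, against 4484 and 2213 with all libraries.

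**Figure D2:**
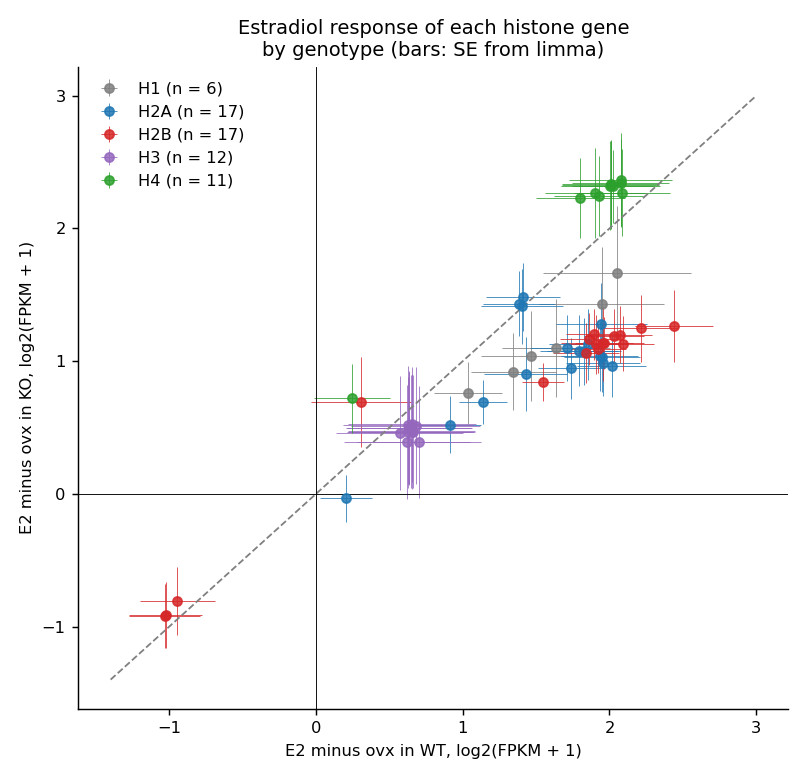
Estradiol response of each of the 63 tested members in WT (horizontal axis) and KO (vertical axis), as log2 differences of FPKM + 1 with SE bars from limma; the dashed line marks equal responses. Below the line lie 13 of 17 H2B, 14 of 17 H2A, 6 of 6 H1 and 12 of 12 H3 members, and above it 11 of 11 H4 members. In both genotypes 3 H2B members fall.

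The H3 members moved with another gene. Their summed FPKM was 448, 693 and 1977 in WT ovx, 641, 604 and 1607 in KO ovx, 1372, 1389 and 1266 in WT E2, 1513, 1092 and 1045 in KO E2, 1445, 1669 and 1535 in WT intact and 1098, 964 and 1060.0 in KO intact. Divided by the FPKM of H3f3b, which encodes the replication-independent variant H3.3 from a polyadenylated mRNA, this sum gave between 10.5 and 15.2 in all 18 libraries (median 11.95), including the pair that stood apart (H3f3b 161 FPKM in WT ovx replicate 3 and 138 in KO ovx replicate 4). For H3f3a, the other H3.3 gene, the same quotient spanned 4.57 to 27.8. The longest run of bases shared by Hist1h3d and H3f3b is 21, against 304 for Hist1h3d and Hist1h3b. The pair was picked after its values were seen, and whether reads of H3f3b or of copies of it entered the H3 values was not tested.

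Batch and state overlap in part. Within batch 3 (1 WT E2 library against 2 WT ovx) the median log2 change of the members was 1.16, against 0.42 over all genes. Within batch 4 (2 against 1) it was 1.72, against 0.12. In KO, batch 3 alone allowed the comparison (1 against 3) and gave 0.91, against 0.26 over all genes. H4 in WT was 0.94 within batch 3 and 2.82 within batch 4. With batch as a term 45 members rose and 3 fell in WT, and 38 rose and 1 fell in KO, while over all genes 4781 rose in WT and 1849 in KO.

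In untreated ovariectomized mice 16 of 63 members were higher in KO and none lower, 5 of H2A and 11 of H2B (limma, adjusted p under 0.05), where 4.63% of all genes were higher and 0.791% lower. The median log2 difference was 0.40 against 0.09 over all genes. The 16 calls were fragile: leaving out WT ovx replicate 1 or KO ovx replicate 4 gave 0, leaving out KO ovx replicate 1 gave 1, WT ovx replicate 3 gave 4, WT ovx replicate 2 gave 5, and KO ovx replicate 2 gave 21. Groups did not overlap in 25 of 63 members (39.7%), all higher in KO, where 26.8% of all genes were higher without overlap; 12 of the 25 were H2A and 13 H2B.

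Hist1h2bc, at the FPKM values given above, had the largest difference, 1.18 on the log2 scale (SE 0.27, adjusted p = 0.0218, limma), followed by Hist1h2af at 1.14 (SE 0.23, adjusted p = 0.0129). Hist1h2af stood at 7.65, 10.5 and 9.05 FPKM in WT ovx and 17.0, 18.1 and 30.5 in KO ovx. Hist1h2bk stood at 13.03, 16.6 and 15.9 against 34.1, 25.0 and 33.3, and Hist1h2bg at 6.38, 8.61 and 9.32 against 17.8, 13.1 and 18.6. For these 4 genes every KO ovx library was above every WT ovx library. Summed over the family, H2A was 283 ± 50.3 in WT ovx and 526 ± 164 in KO ovx, and H2B 115 ± 14.0 and 217 ± 34.2 (FPKM, mean ± SD, n = 3). Within batch 3 (3 KO against 2 WT libraries) 17 of 17 H2A members and 13 of 17 H2B members were higher in KO. Their median log2 differences were 0.90 and 0.84, against 0.11 over all genes.

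The other families did not pass this test. H1 differed by a median of 0.21 and H4 by 0.39, with 0 of 6 and 0 of 11 called (limma) and 0 in either at an unadjusted p under 0.05. In H3 the median difference was 0.00, with 0 of 12 called, between groups that each held 1 very high library, and it was -0.29 under quantile normalization. Hist2h2be, Hist3h2ba and Hist3h2bb, which fell under estradiol, differed by -0.05, -0.11 and -0.06 between genotypes, and none passed.

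**Figure D3:**
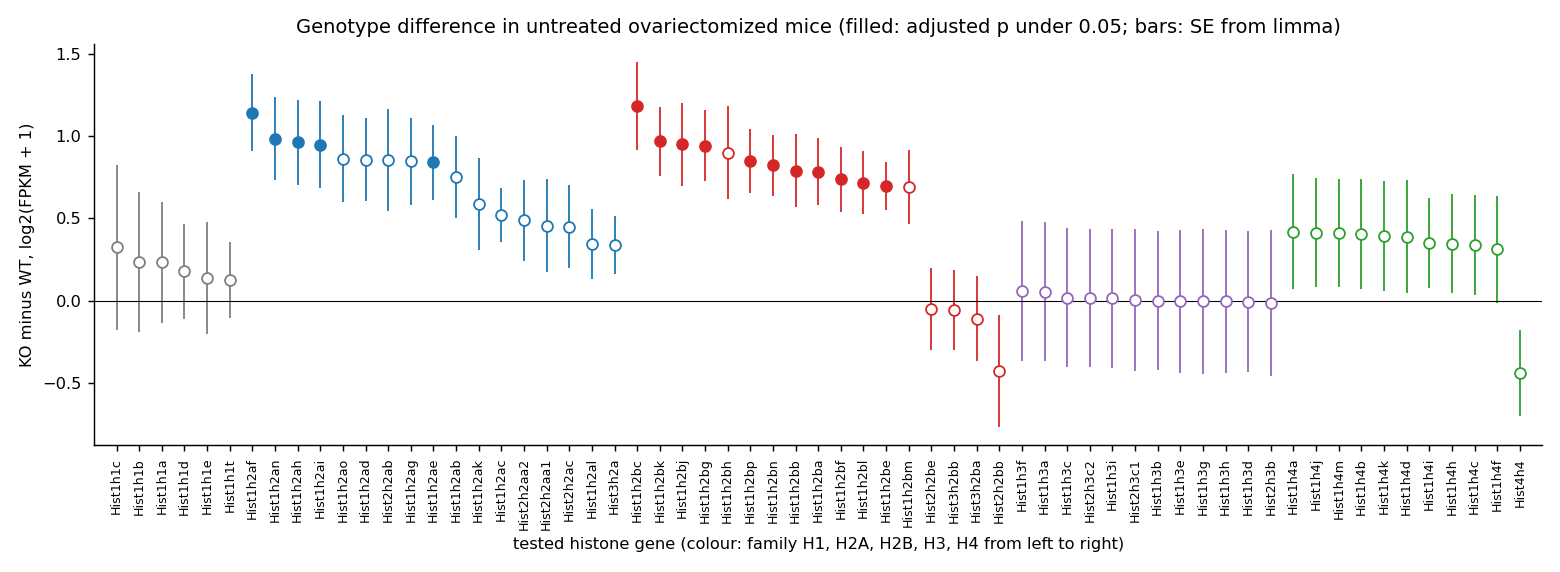
Difference between KO and WT in untreated ovariectomized mice for each of the 63 tested members, as log2(FPKM + 1) with SE bars from limma, ordered by family and size; filled points passed the test. The 16 filled points are 5 H2A and 11 H2B genes, and H3 lies at 0 with wide bars.

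The RNA of cell type markers also differed between these groups. Summed epithelial markers ran from 86.7 to 156 FPKM among WT ovx libraries, from 224 to 706 among KO ovx, 867 to 1464 in WT E2 and 139 to 944 in KO E2, with 8 of 10 markers rising under estradiol in WT, and in KO 0 rising and 1 falling. Summed markers of neutrophils ran from 5.63 to 14.1 FPKM among WT ovx libraries, from 3.67 to 277 among KO ovx, 71.5 to 2353 in WT E2 and 1366 to 14885 in KO E2. Stromal markers summed to 451 to 521 FPKM among WT ovx, 127 to 300.2 among KO ovx and 126 to 151 among WT E2 libraries, with 6 of 8 falling under estradiol in WT. Among KO E2 libraries they summed to 134 to 689, with 1 of 8 rising and 1 falling under estradiol in KO. Markers of red blood cells rose in 3 of 3 and of lymphocytes in 5 of 5 under estradiol in KO. KO ovx replicate 4 held the highest value of its group in H1, H3, H2A and the epithelial and neutrophil sums. Within KO ovx it also held the highest adipocyte sum (144 FPKM, against 0.268 and 0.163) and the lowest smooth muscle sum (258.9, against 862 and 1034). With estradiol the adipocyte sum was 439, 4.93 and 2403 FPKM in KO E2 and 4.84, 47.5 and 2.74 in WT E2. The smooth muscle sum was 211, 215 and 304 FPKM in KO E2 and 805, 732 and 189 in WT E2. Marker sums do not separate the number of cells from the level per cell, and the part of these cell types in the histone values was not tested.

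Under estradiol no member differed between genotypes by the test, with 0 of 63 called against 8.49% of all genes and 7 at an unadjusted p under 0.05 (limma). H2A summed to 1043, 1052 and 916 FPKM in WT E2 and 1396, 837 and 1153 in KO E2, and H2B to 530.1, 490.0 and 436 and to 451, 641 and 404. The ranges overlapped in both families. H4 was higher in KO in 11 of 11 tested members, with a median log2 difference of 0.71 against -0.05 over all genes, from sums of 155, 226 and 73.1 in WT E2 and 273, 197 and 220.5 in KO E2. The low value is WT E2 replicate 5. The H4 median was 1.52 within batch 3, which holds that library, and 0.30 within batch 4. Over all genes these medians were -0.0045 and -0.06.

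The fitted response to estradiol was smaller in KO than in WT in 45 of 63 tested members. These were 14 of 17 H2A, 13 of 17 H2B, 6 of 6 H1 and 12 of 12 H3 members. The median log2 difference was -0.67 in H2A, -0.78 in H2B, -0.42 in H1 and -0.16 in H3, against -0.14 over all genes. Few members passed the test of that difference. It was called for 2 of 63 members, both lower in KO, Hist1h2be and Hist1h2bk, against 6.95% of all genes lower and 4.05% higher, and 17 members had an unadjusted p under 0.05. Hist1h2bk went from 13.03, 16.6 and 15.9 FPKM to 74.1, 68.1 and 61.3 in WT and from 34.1, 25.0 and 33.3 to 62.9, 89.7 and 55.9 in KO. The E2 libraries of the genotypes overlapped and the ovx libraries did not. The rise was 2.09 in WT and 1.13 in KO, a difference of -0.96 on the log2 scale (SE 0.29, adjusted p = 0.0490, limma). For Hist1h2be the difference was -0.70 (SE 0.21, adjusted p = 0.0407). Both calls were lost in most alternatives; leaving out a single library gave between 0 and 11 members. In H4 the response was larger in KO in 11 of 11 members, and 0 were called, also at an unadjusted p under 0.05.

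Genes that serve histone synthesis were examined from lists. Slbp, which binds the stem-loop, rose under estradiol in both genotypes, from 3.11, 3.68 and 3.57 FPKM to 5.51, 5.24 and 6.52 in WT (log2 change 0.60, SE 0.19, adjusted p = 0.0204, limma) and by 0.63 in KO (adjusted p = 0.0275). Npat, the activator of histone transcription, did not pass the test in either (-0.19, adjusted p = 0.243, and -0.24, adjusted p = 0.189). Of 20 tested genes of histone transcription and 3′ processing, 5 rose (25%, against 32.3% of all genes) and 2 fell in WT, and 3 rose in KO (15%, against 15.9%), shares below those of all genes. The risers in WT included the cleavage factors Cpsf3 (1.12) and Cpsf2 (1.00), and those in KO were Ccne1, the cyclin that starts S phase (1.00), E2f1, a transcription factor of S-phase genes (0.95), and Slbp.

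Few DNA replication genes passed. Of 30 tested, 5 rose and 1 fell in WT (16.7% rising, against 32.3% of all genes) and 2 rose in KO (6.67%, against 15.9%). Rrm2, a subunit of the enzyme that makes deoxynucleotides, rose by 1.24 and 1.496, and Tk1, thymidine kinase, by 0.95 and 1.28, while Pcna, the sliding clamp, changed by 0.41 (adjusted p = 0.316) and 0.22 (adjusted p = 0.657). Of 15 mitosis genes 6 rose in WT (40%, against 32.3% of all genes) and 2 in KO (13.3%, against 15.9%). Their median log2 change was 0.85 in WT and 0.81 in KO, against 0.24 and 0.07 over all genes. For the DNA replication genes it was 0.17 and 0.26. Birc5 (survivin) rose by 1.86 and 1.69, and Mki67 did not pass (limma, 0.66, adjusted p = 0.312, and 0.94, adjusted p = 0.199). In KO against WT without hormone 0 of 20, 0 of 30 and 0 of 15 genes of the histone transcription, DNA replication and mitosis lists passed (limma), with 3, 0 and 1 at an unadjusted p under 0.05. The mitosis sum ran from 5.49 to 5.55 FPKM among WT ovx libraries and from 7.66 to 27.9 among KO ovx. With estradiol it ran from 20.1 to 36.7 in WT and from 29.0 to 55.7 in KO, above every ovx library of the same genotype.

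Histone variants are also made outside S phase. H2afj, a variant of H2A, stood at 2.91, 4.27 and 3.29 FPKM in WT ovx, 7.43, 7.49 and 12.9 in KO ovx, 18.9, 19.5 and 18.5 in WT E2 and 18, 14.6 and 18.8 in KO E2. It was higher in KO ovx than in WT ovx (1.16, SE 0.20, adjusted p = 0.00444, limma), rose with estradiol in both genotypes (2.16 and 0.86), and rose less in KO (difference -1.31, SE 0.28, adjusted p = 0.0128). It shares a run of 53 bases with Hist1h2ah. Of the 11 variants tested 6 rose and 2 fell under estradiol in WT (54.5% and 18.2%, against 32.3% and 15.2% of all genes) and 3 rose in KO (27.3%, against 15.9%). Of 19 histone chaperones and deposition factors 3 rose (15.8%) and 1 fell in WT, Rbbp7 rising by 1.77, a share of risers below that of all genes. In KO 0 rose and 2 fell (10.5%, against 11.2% of all genes), Atrx by 0.73 and Asf1a by 0.69.

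**Figure D4:**
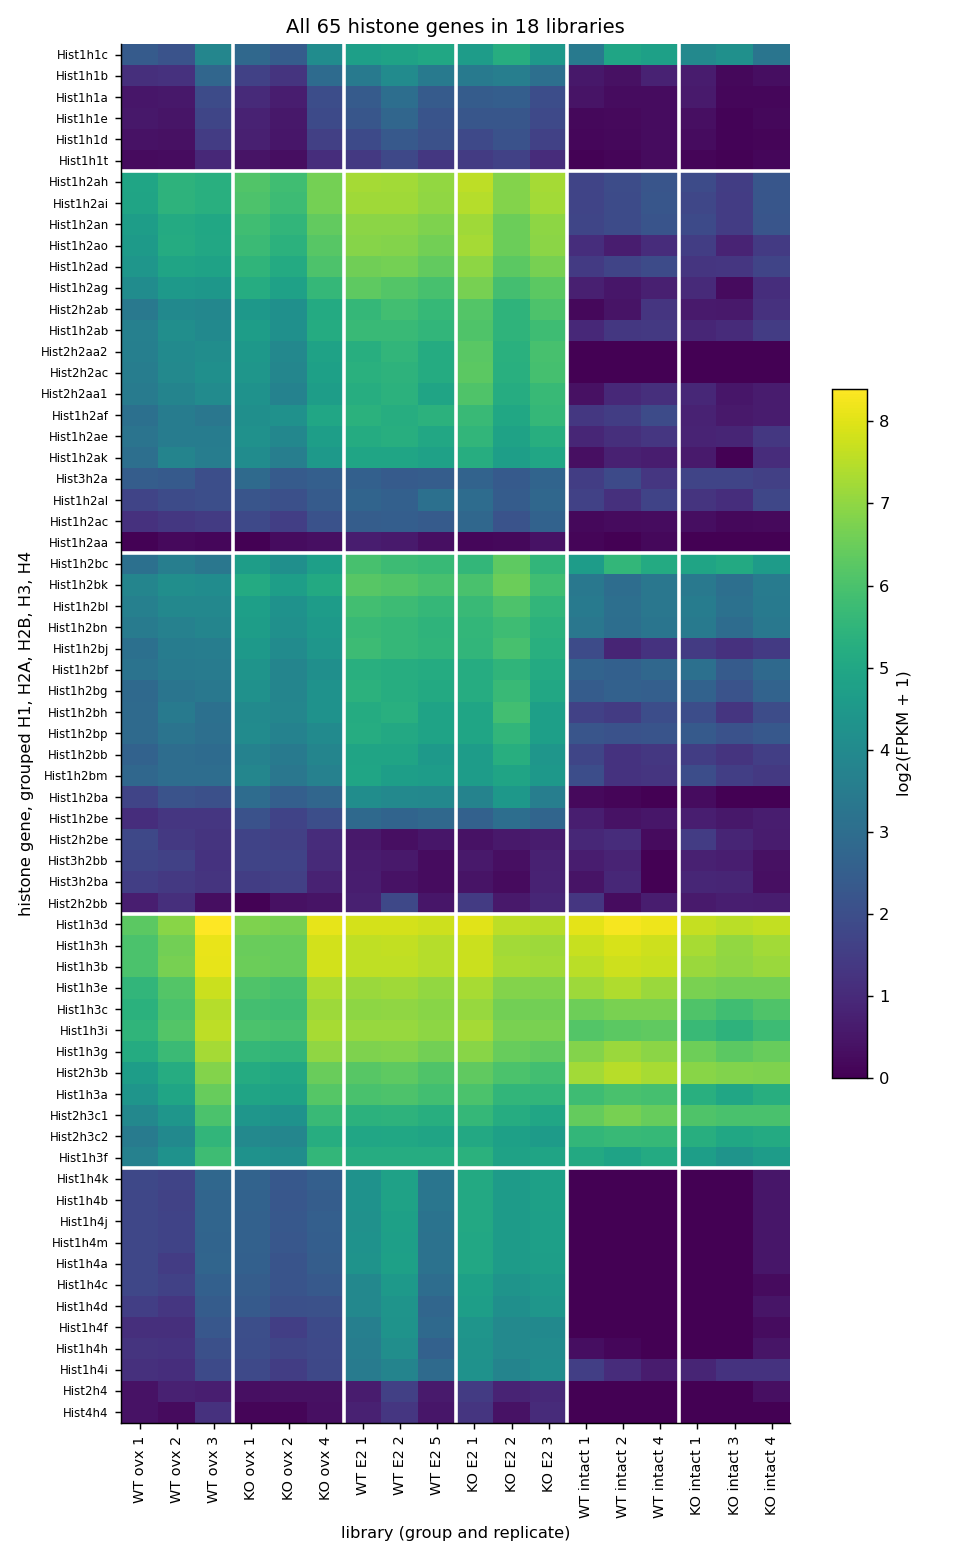
log2(FPKM + 1) of all 65 members (rows, grouped by family and ordered by mean) in the 18 libraries (columns). H4 rows other than Hist1h4i are at or near 0 in the intact libraries while H3 rows stay high, and 3 H2B rows near the foot of that family are brighter in ovx than in E2.

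By the steps of their lowest values the intact libraries fell into other sets than the ovariectomized ones, with none in common. The labels name no batch, but a difference in processing and the presence of ovaries cannot be told apart here, and the values are given as a description with that limit. In WT 5 of 63 members were higher and 40 lower in intact than in ovx, against 29.9% and 15.4% of all genes; in KO 0 were higher and 40 lower, against 7.14% and 8.74%. H4 summed to 2.17, 1.19 and 0.55 FPKM in WT intact and 0.844, 1.32 and 4.86 in KO intact, below every ovariectomized library (lowest 18.8). H2A summed to 18.8, 22.5 and 28.6 and to 20.5, 14.9 and 27.7, against at least 226. Hist2h2aa2, Hist2h2ac and Hist4h4 were listed at 0 in all 6 intact libraries.

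The families did not fall alike. H2B summed to 79.9, 89.7 and 84.0 FPKM in WT intact and 90.1, 75.9 and 79.0 in KO intact, against 99.6 to 126 for WT and 178 to 241 for KO in the ovx libraries. H3 summed to 1445 to 1669 in WT intact and 964 to 1098 in KO intact, within the range of the ovx libraries of each genotype (448 to 1977 and 604 to 1607). Hist1h1c was 94.4% of the H1 sum of the intact libraries and 53.6% of that of the ovariectomized ones, and Hist1h4i 64.7% and 6.58% of H4. Both have annotated transcripts that run past the stem-loop to a poly(A) signal. So do 4 other tested members of these families that were low in the intact libraries. Hist1h4a and Hist1h4j were at 0 in all of them but KO intact replicate 4 (0.420 and 0.416 FPKM). Hist4h4 was at 0 in every one, and Hist1h1t ran from 0.0365 to 0.174. Hist1h2bc was 38.1% and 10.8% of H2B, with an annotated end that has no poly(A) signal. Among the 20 tested members that end by the stem-loop 16 were lower in WT intact than in WT ovx (median -1.78), and among the 11 that run past it to a poly(A) signal 6 were lower and 2 higher (median -0.69). The 11 that run past it without such a signal had much the same values, with 5 lower and 1 higher (median -0.64). These members share families and copies, and the difference between the kinds of end was not tested.

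**Figure D5:**
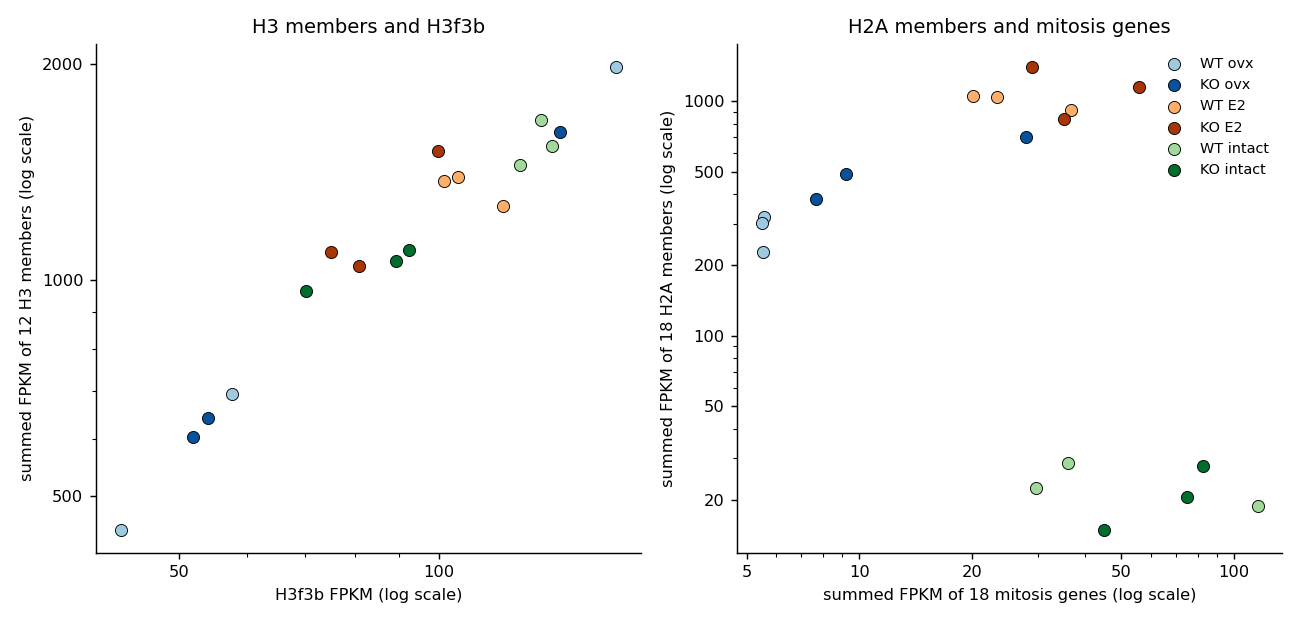
Left, summed FPKM of 12 H3 members against H3f3b in each library; right, summed FPKM of 18 H2A members against 18 mitosis genes; all axes are logarithmic and colours give the group. On the left the 18 libraries lie along a line of near-constant ratio (10.5 to 15.2). On the right the intact libraries hold the lowest H2A sums. Their mitosis sums lie above those of every ovx library and overlap those of E2.

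Cell markers differed too in WT. In WT intact against WT ovx 7 of 7 smooth muscle (100%) and 3 of 8 stromal markers (37.5%) were lower, against 15.4% of all genes. There 7 of 10 epithelial markers (70%) were higher, against 29.9%. In KO intact against KO ovx 0 of 7 smooth muscle and 0 of 8 stromal markers were called. Of 10 epithelial markers 0 were higher and 1 was lower in KO intact (10%, against 8.74%). The part of these cell types was not tested. Mitosis genes went the other way from H2A and H4. Their sum was 116, 29.6 and 36.1 FPKM in WT intact, against 5.49 to 5.55 in WT ovx and 20.1 to 36.7 in WT E2. It was 45.1 to 82.6 in KO intact, against 7.66 to 27.9 in KO ovx and 29.0 to 55.7 in KO E2. The intact sums thus overlapped those of E2 in both genotypes. Of the mitosis genes 15 of 15 tested were higher in WT intact than in WT ovx and 12 of 15 in KO. Slbp too was higher in intact than in ovx (1.16, adjusted p = 4.78e-04, and 0.76, adjusted p = 0.0163, limma). RNA without a poly(A) tail summed to 138 to 215 FPKM in WT intact, 186 to 209 in KO intact, 324 to 552 among WT ovx and 187 to 321 among KO ovx libraries. Of 41 such genes tested 6 were lower in WT intact (14.6%, against 15.4% of all genes) and 1 in KO intact (2.44%, against 8.74%). Neither share exceeded that of all genes. In each genotype 0 of the 41 were higher, against 29.9% of all genes in WT and 7.14% in KO. Their median log2 change was -0.56 in WT, against 0.21 over all genes, and -0.23 in KO, against 0.09. The part of poly(A) selection in the low H2A and H4 values of the intact libraries was not tested.

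Between the genotypes with ovaries in place, 0 of 63 members passed the test, against 2.18% of all genes, and 1 had an unadjusted p under 0.05 (limma). H3 was lower in KO intact in 12 of 12 members without overlap, where 12.5% of all genes were. The median log2 difference was -0.57, or -0.45 within batch 1 and -0.78 within batch 2. Over all genes it was -0.04, or -0.03 and -0.06 within those batches. Smooth muscle markers summed to 73.1 to 455 FPKM in WT intact and 487 to 1690.3 in KO intact, with 1 of 7 called higher in KO and 7 of 7 at an unadjusted p under 0.05 (limma), and their part in this difference was not tested. H3f3b showed the same order as H3, at 124, 131 and 135 FPKM in WT intact and 92.5, 70.2 and 89.2 in KO intact.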

How the data were processed

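RNA sequencing values of 18 libraries were taken from the table the authors deposited, which gives FPKM per gene computed with Cufflinks 2.0.2 and Cuffdiff, per the submitters' processing notes. The aligner, annotation and build are not given in the sources used here, and depth is unknown. Per the labels' protocols the kit was TruSeq Stranded mRNA. Values were analysed here as log2(FPKM + 1), a scale that understates the fold of low genes, computed from the deposited FPKM. Genes with at least 1 FPKM in at least 3 of 18 libraries (13898) were fitted with limma 3.58.1 in R 4.3.3, with a mean per group over all 18 libraries and eBayes with a trend, two-sided, adjusted by Benjamini-Hochberg over all genes in each of 8 comparisons, threshold 0.05. The fit was tested on simulated data. Batches were found from shared steps among the lowest values (a median of 7.33% of low genes shared a step within batches, range 3.56% to 19.6%, 2.91% between batches alike in ovaries, range 1.78% to 3.98%, and 1.47% where one library was intact and the other ovariectomized). The first 2 ranges overlap, so the split of batches 1 and 2 and of 3 and 4 is less sure. The number of batches, 4, was a fixed setting. The same shares formed the batches, so a higher share within them was built in and is no test of the split. Alternatives were a pseudocount of 0.1, no filter, median-ratio and quantile scaling, robust eBayes, batch as a term, a replicate block, only the ovariectomized libraries, and leaving out libraries. Named members were the 12 with the highest mean FPKM, the calls of each comparison (at most the 10 largest), linker histones and those annotated past the stem-loop to a poly(A) signal. From the gene lists up to 4 of the largest calls per comparison were named, and Slbp, Npat, Pcna and Mki67 whatever their result. Members and lists were chosen with earlier results of these data known. Figures were drawn with matplotlib 3.10.9 in Python 3.11.15.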

Additional observations from a re-analysis of the deposited data

Results flagged for a closer look

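Hist1h2be and Hist1h2bk, both H2B genes, were noted because their response to estradiol differed between genotypes by the test of the difference itself, at -0.70 and -0.96 on the log2 scale (limma, adjusted p = 0.0407 and 0.0490), with each gene rising in both genotypes and rising less in KO. Hist1h2be stood at 1.16, 1.503 and 1.51 FPKM in WT ovx, 6.32, 5.52 and 6.07 in WT E2, 3.33, 2.26 and 3.08 in KO ovx and 5.15, 7.14 and 5.65 in KO E2. The table gives it a position merged with Hist1h1e. Hist1h2be kept its call in 4 of 21 alternatives, with adjusted p up to 0.241, and Hist1h2bk in 5 of 21, with adjusted p up to 0.206; neither changed sign.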

How the results depend on the processing

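No call of a named member changed sign under any alternative run, and 106 of 149 such calls held in all of theirs: 33 of 36 for estradiol in WT, 16 of 36 in KO, 29 of 34 and 28 of 29 for intact against ovx in WT and KO, 0 of 12 for KO against WT in ovx and 0 of 2 for the difference in response. The 16 calls for KO against WT in ovx became 10 with a pseudocount of 0.1, 9 with median-ratio scaling, 7 with quantile normalization, 7 with only the 12 ovariectomized libraries and 0 without both WT ovx replicate 3 and KO ovx replicate 4. Calls between genotypes rose from 0 to 1 under E2 with quantile normalization, and from 0 to 1 in intact with the smaller pseudocount, median-ratio scaling and quantile normalization. Estradiol in KO fell from 47 calls to 23 with quantile normalization. The 2 calls for the difference in response became 0 with the smaller pseudocount, median-ratio scaling, only the 12 libraries or without those 2 libraries, 1 with quantile normalization (0 of the original 2) and 4 with batch as a term (1 of the original 2). The cause was not tested. Median-ratio scaling and quantile normalization moved the median of all genes for estradiol in WT from 0.24 to 0.10 and -0.05 and the share of all calls that were higher from 67.9% to 57.4% and 43.6%; the members' split stayed at 93.8% and 93.2% higher. For intact against ovx in WT that median went from 0.21 to 0.07 and 0.05. The share of all calls that were higher went from 85.4% to 70.8% and 51.3% for KO against WT in ovx, and under quantile normalization from 58.7% to 39.5% for estradiol in KO, from 36.8% to 48.9% for the difference in response and from 65.9% to 52.6% for intact against ovx in WT.

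Leaving out each library in turn gave 0 to 21 calls for KO against WT in ovx, 0 to 2 in E2, 0 to 1 in intact, 48 to 60 for estradiol in WT, 35 to 47 in KO, 0 to 11 for the difference in response, and 39 to 50 and 37 to 43 for intact against ovx in WT and KO. For the difference in response, 0 were called without any of 9 libraries, 1 without WT E2 replicate 2, 7 without KO ovx replicate 2 and 11 without KO E2 replicate 2. With the replicate number as a block (replicate block), 0 members were called for KO against WT in ovx and 0 for the difference in response. Groups compared directly share only 2 numbers, and the samples share only a number. Same-numbered libraries correlated at 0.339 and 0.0785 in WT and KO ovx. Batch as a term could not be fitted for intact against ovx. Without read counts, the limit that depth sets on low members such as Hist3h2ba is unknown.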
